A study of Mus musculus with 12 samples.

Results

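The 39 genes described here mark blood and tissue cells other than T cells, and they were followed through RNA libraries that had been sorted as CD4+ T cells. They were taken by symbol from a count matrix of 43626 genes and fell into 5 sets: 14 macrophage and monocyte genes, 5 genes of antigen presentation and dendritic cells, 11 neutrophil granule genes, the 2 eosinophil granule genes Prg2 and Epx, and 7 erythroid genes. All 39 were found, and 38 passed the filter on low counts. Epx, at 54 counts in total, did not, so it has levels but no test in the fits of all libraries with that filter. Some fits that left out a recipient, and the fit without the filter, did test it.

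The donor cells were naive splenic CD4+ T cells, sorted as CD45RBhi and CD25-, from mice with 1 flox and 1 GFP allele of Eomes. EOMES is a T-box transcription factor of cytotoxic lymphocytes, and GFP, a green fluorescent protein, reports its transcription. Donors of genotype Eomes flox/GFP; no cre are called Het, and donors of genotype Eomes flox/GFP; Lck-cre, in which cre is driven by the T-lineage Lck promoter, are called KO. The cells were transferred into adult male Rag2-/- mice, a strain that lacks lymphocytes with rearranged receptors but keeps its own macrophages, granulocytes, dendritic cells and red cell precursors. After 3 weeks the GFP-positive and the GFP-negative CD4+ cells of each of 6 recipient spleens were sorted, which gave 3 libraries in each of 4 groups (2 fractions of each genotype). Each recipient thus gave a pair of libraries with the same genotype and number. The ages of donors and recipients, and any gate beyond CD4 and GFP at the final sort, were not given in the sources used here.

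Macrophages, granulocytes and red cell precursors share the spleen with T cells, and each fills its cytoplasm with a small group of very abundant transcripts. Neutrophils load their granules in stages, with myeloperoxidase and the serine proteases made in the earliest precursors and lactoferrin and cathelicidin made later. The S100 proteins, whose genes are counted in the neutrophil granule set here, lie mainly in the cytosol. Eosinophils store major basic protein and eosinophil peroxidase, plasmacytoid dendritic cells carry the receptor Siglec-H, and erythroblasts make globins, the haem enzyme ALAS2 and the anion exchanger band 3. None of these products is typical of CD4+ T cells, apart from low levels of a few, such as cystatin C.

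The promoters of 2 genes of the neutrophil granule set and 2 erythroid genes are shown because members of these sets moved together. The RefSeq table (GRCm38.p6) held a promoter for 28 of the 39 genes, as 250 bases before to 50 bases after the start. The bases printed here stop before the first base of the deposited gene, and all 4 are on the plus strand. Capitals mark a match to the PU.1 word GAGGAAGT on either strand in Elane and S100a8, and a match to a GATA word (AGATAA or, ending in G, AGATAG, and both of these with T as the first letter, either strand) in Hba-a2 and Alas2. The matches begin 85, 172, 186 and 86 bases before the RefSeq start, in that order. The windows are chr10:79886062-79886311, chr3:90668821-90669070, chr11:32296242-32296488 and chrX:150547167-150547374.
Elane: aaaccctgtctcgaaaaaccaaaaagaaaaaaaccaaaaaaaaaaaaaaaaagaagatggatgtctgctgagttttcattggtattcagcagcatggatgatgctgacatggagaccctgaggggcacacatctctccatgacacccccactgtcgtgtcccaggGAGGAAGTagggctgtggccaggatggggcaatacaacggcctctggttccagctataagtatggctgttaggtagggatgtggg
S100a8: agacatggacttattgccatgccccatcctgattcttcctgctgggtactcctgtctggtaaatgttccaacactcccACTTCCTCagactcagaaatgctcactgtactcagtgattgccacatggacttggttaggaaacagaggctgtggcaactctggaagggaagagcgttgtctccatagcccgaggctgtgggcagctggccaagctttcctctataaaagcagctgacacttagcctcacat
Hba-a2: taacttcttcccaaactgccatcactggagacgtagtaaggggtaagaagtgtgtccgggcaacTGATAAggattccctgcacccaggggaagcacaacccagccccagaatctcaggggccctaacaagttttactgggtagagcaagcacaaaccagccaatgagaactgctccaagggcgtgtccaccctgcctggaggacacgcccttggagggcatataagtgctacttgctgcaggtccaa
Alas2: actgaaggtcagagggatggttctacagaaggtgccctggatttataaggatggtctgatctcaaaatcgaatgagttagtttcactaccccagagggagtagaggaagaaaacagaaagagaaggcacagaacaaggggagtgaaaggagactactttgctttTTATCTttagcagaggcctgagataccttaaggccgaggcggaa
The PU.1 word was in 4 of the 11 neutrophil granule promoters (S100a8, Prtn3, Elane and Mpo) and in 3.20% of all 32851 promoters of the same 300-base length. A GATA word was in 4 of 5 erythroid promoters (Hba-a1, Hba-a2, Hbb-bs and Alas2), in 4 of 11 neutrophil granule promoters and in 29.8% of all promoters. The C/EBP word TTGCNNAA was in 4 of 11 neutrophil granule promoters and 10.8% of all, and the KLF word CCNCNCCC in 6 of 11 and 49.5%. Of the 5 erythroid promoters, 3 held the KLF word, 1 the C/EBP word and 0 the PU.1 word. Of the 8 macrophage and monocyte promoters, 6 held the KLF word and 1 each the PU.1, C/EBP and GATA words. The 3 antigen presentation and dendritic promoters held the KLF word in 2, the C/EBP and GATA words in 1 each and the PU.1 word in 0, and the 1 eosinophil promoter held the KLF word alone. These are counts of letters and not of bound sites, and they overlap where a promoter holds several words.

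Before the values, the libraries themselves differed. Total counts ran from 2116894 to 18167236, and 4 features took 58.3% of the counts of Het GFP-positive library 2 and 54.3% of KO GFP-positive library 2, against 16.3% to 30.9% elsewhere. The GFP-positive libraries came from 18000 to 117000 sorted cells and the GFP-negative libraries from 645000 to 2100000, so fraction and number of cells cannot be told apart. Levels below are counts per 1000000 counts (CPM) scaled by the TMM method. Summed over 11 CD4 T cell markers, Cd4 and Trbc2 among them, the level was 3234 to 4063 CPM in the GFP-negative and 2541 to 3196 CPM in the GFP-positive libraries. B and plasma cell markers summed to 5.16 to 22.0 and 6.06 to 15.6 CPM, platelet and megakaryocyte markers to 1.79 to 6.53 and 3.19 to 14.1 CPM, and markers of stroma and endothelium to 43.0 to 54.5 and 30.0 to 61.4 CPM. Of the listed markers, the red pulp macrophage gene Vsig4, the eosinophil gene Ear1, the mast cell genes Mcpt4 and Tpsb2 and the stromal genes Col3a1, Dcn and Ccl21a had 0 counts in all 12 libraries. Both libraries of Het recipient 3 held the highest neutrophil granule level of their fraction, and KO GFP-negative library 3 held the lowest, so counts are also given without them where these changed by over 1.5 times.

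The 39 genes were a small share of every library and a larger one in the GFP-positive fraction. Together they took 0.0558%, 0.155% and 0.399% of counts in the Het GFP-negative libraries and 0.128%, 0.337% and 1.09% in the GFP-positive libraries of the same recipients. In the KO recipients the shares were 0.0330%, 0.178% and 0.0217% in the GFP-negative and 0.144%, 0.255% and 0.0967% in the GFP-positive libraries. The exact binomial 95% interval of the lowest share was 0.0210% to 0.0224% and that of the highest 1.08% to 1.10%, which covers counting error only. The summed level was 2.57 to 4.82 times as high in the GFP-positive as in the GFP-negative library of the same recipient, in 6 of 6 recipients. Set against the counts of the CD4 T cell markers in place of the library size, the ratio was 3.32 to 6.88. The fractions nonetheless overlapped: by share of counts, Het GFP-negative library 3 stood above 5 of the 6 GFP-positive libraries, and by summed CPM after TMM scaling above 3 of them.

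**Figure D1:**
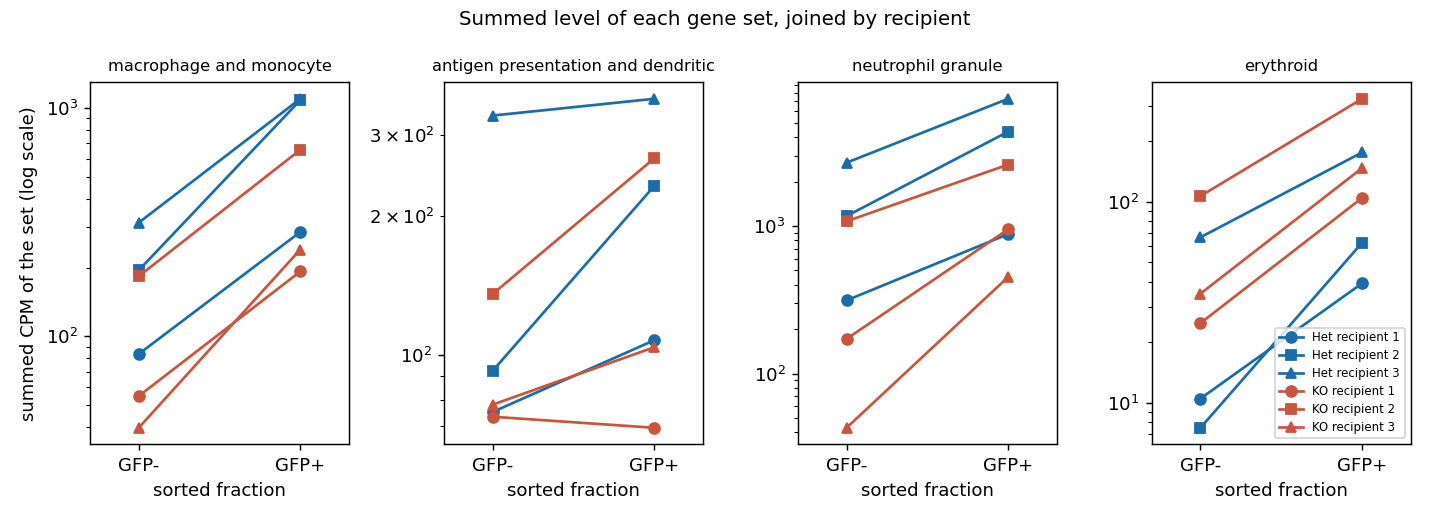
Summed CPM (log scale) of 4 gene sets in the GFP-negative and GFP-positive library of each recipient; each line joins the libraries of 1 recipient, blue for Het and red for KO. Macrophage and monocyte, neutrophil granule and erythroid levels were higher in the GFP-positive library in 6 of 6 recipients, and the antigen presentation and dendritic level in 5 of 6.

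Recipients differed within each fraction, and the sets ranked them differently. Neutrophil granule genes summed to 314, 1169 and 2687 CPM in the GFP-negative libraries of Het recipients 1, 2 and 3 and to 881, 4358 and 7279.9 CPM in their GFP-positive libraries. In KO recipients they summed to 172, 1077 and 42.96 CPM and 950.2, 2608 and 451 CPM. Erythroid genes summed to 10.5, 7.49 and 66.5 CPM and 39.2, 62.4 and 176 CPM in the Het and to 24.9, 107 and 34.9 CPM and 104, 326 and 147 CPM in the KO recipients. Het recipient 3 was thus highest for neutrophil granule genes in both fractions, and KO recipient 2 for erythroid genes. KO recipient 3 was lowest for granule genes in both fractions but not for erythroid genes. In sorted bulk samples, more cells of a type and more of its RNA per cell cannot be told apart.

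Across both genotypes, the averaged GFP-positive minus GFP-negative comparison called 10 of the 38 tested members higher and none lower with 1 mean per group, where 18.1% of all 13238 tested genes were called in either direction, 9.91% as higher and 8.18% as lower. These tests used edgeR's quasi-likelihood F-test, with p-values adjusted by Benjamini and Hochberg over all tested genes and a call at 0.05. The 10 were Csf1r, C1qa, Cd68, Itgam, Adgre1, Vcan, Fn1, Hba-a1, Slc4a1 and Car2. This count and the share of all genes called higher both moved when single libraries were left out. It was 4 without Het GFP-negative 2, Het GFP-positive 2 or KO GFP-negative 1, where 3.10%, 5.17% and 3.37% of all genes were called higher. It was 5 without KO GFP-negative 3, KO GFP-positive 2 or KO GFP-positive 3, against 4.65%, 5.27% and 3.03%, and 6 without Het GFP-negative 1 or Het GFP-positive 3, against 9.18% and 10.1%. It was 20 without Het GFP-negative 3, 18 without KO GFP-negative 2 and 16 without both libraries of Het recipient 3, against 9.04%, 10.4% and 8.30%. When the recipient entered the fit as a block, so that libraries of the same mouse were compared, 33 members were called higher and 2 lower, where 20.3% of all genes were called higher and 20.7% lower. Of these, Prg2 and Siglech had passed the filter on low counts only through 1 fraction, the one in which they were higher. Over the other 36 tested members the blocked fit called 32 higher and 1 lower, and the fit without a block 10 and 0. Leaving out each recipient in turn left 33 to 36 members called in either direction. In these fits 25.2% to 45.8% of all genes were called in either direction, and 13.4% to 22.9% as higher. The median log2 fold change of the 38 tested members was 1.53 without and 1.79 with the block, the same to 2 decimals over those 36, against -0.02 over all tested genes in both. Of the 11 CD4 T cell markers, 7 were called lower and none higher with the block, with a median of -0.52; the part of these markers in the result was not tested. With the block, 3 of 3 tested haematopoietic progenitor markers were called higher, and of 4 tested NK cell markers 0 were called higher and 1 lower. No neutrophil granule gene was called without the block and all 11 were with it. All further log2 fold changes are given with their standard error and are GFP-positive minus GFP-negative, averaged over genotypes, with the recipient as a block, unless another comparison is named.

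**Figure D2:**
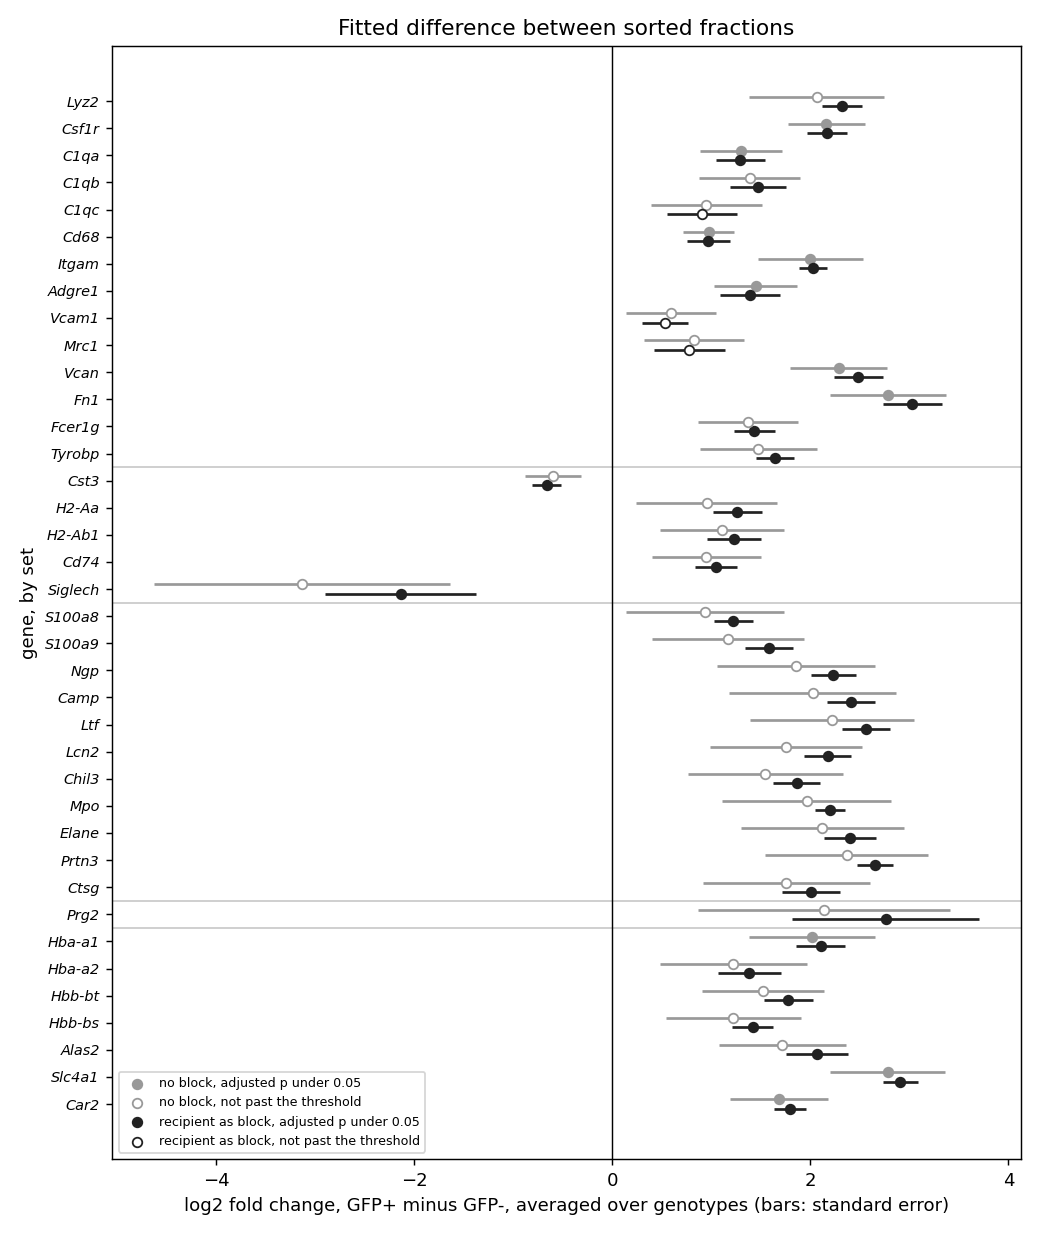
Fitted log2 fold change (GFP-positive minus GFP-negative, averaged over genotypes) of the 38 tested genes, with standard error bars, without a block in grey and with the recipient as a block in black; filled points passed an adjusted p of 0.05. For most genes the values of both fits lie close together, and the block shortens the bars; Cst3 and Siglech lie below 0.

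Levels in single recipients were then counted without a model. In all 6 recipients, 32 of the 38 tested members were higher in the GFP-positive library, against 17.7% of all tested genes. The 6 that were not were C1qc, Vcam1, Mrc1, Cst3, Siglech and Prg2. Every GFP-positive library stood above every GFP-negative library for Fn1 and Slc4a1 alone, against 2.49% of all genes, so for the other members the spread between recipients bridged the fractions.

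Among the macrophage and monocyte genes, Csf1r, the receptor for the growth factor that keeps macrophages alive, gave the lowest adjusted p of all members without the block. It stood at 5.88, 5.79 and 18.1 CPM in the GFP-negative libraries of Het recipients 1, 2 and 3 and 3.51, 5.17 and 4.02 CPM in those of the KO recipients. The GFP-positive libraries held 24.8, 44.5 and 60.8 CPM in Het recipients and 9.03, 36.4 and 18.03 CPM in KO recipients. Each recipient was higher in the GFP-positive library, by 2.58 to 7.69 times. The log2 fold change was 2.16 ± 0.39 without the block (adjusted p = 0.00691) and 2.17 ± 0.20 with it (adjusted p = 3.56e-05). Csf1r kept its call without each of the 12 libraries in turn, as did Vcan, Fn1 and Slc4a1 among the 10, while the other 6 kept theirs in 3 to 7 of the 12 fits. It overlaps Hmgxb3 on the other strand, and the strand setting of the counting is not given in the sources used here.

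Fn1, which encodes the matrix protein fibronectin, and Vcan, which encodes the proteoglycan versican made by monocytes, rose furthest in this set. Fn1 was at 9.27, 4.77 and 16.6 CPM in the GFP-negative libraries of Het recipients 1, 2 and 3 and 3.42, 14.2 and 0.894 CPM in those of the KO recipients. Its GFP-positive levels were 42.9, 51.5 and 138 CPM in Het recipients and 21.5, 66.4 and 33.9 CPM in KO recipients. No GFP-negative library reached the lowest GFP-positive one, and the log2 fold change was 3.03 ± 0.30 (adjusted p = 5.13e-05). Vcan rose by 2.48 ± 0.25 (adjusted p = 5.24e-05), from between 1.64 and 12.6 CPM to between 10.4 and 63.4 CPM. Both are long transcripts, of 11685 and 14462 exonic bases, and over all tested genes the fold change and the exonic length had a Spearman correlation of 0.206 (0.121 over the members), given here as a description across genes that share libraries.

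Lyz2 and Itgam, which neutrophils and monocytes share, followed the granule genes across recipients. Lyz2 encodes lysozyme and was the most abundant member of the set. It stood at 31.7, 132 and 152 CPM in the GFP-negative libraries of Het recipients 1, 2 and 3 and 17.8, 108 and 7.60 CPM in those of the KO recipients. In the GFP-positive libraries it reached 121, 700.2 and 536 CPM in Het recipients and 96.2, 358 and 97.1 CPM in KO recipients. Both fractions were highest in recipients Het 2 and Het 3 and in KO 2, and the log2 fold change was 2.32 ± 0.20 (adjusted p = 2.63e-05). Itgam, the alpha chain of the integrin CD11b, rose by 2.03 ± 0.14 (adjusted p = 7.92e-06), and every recipient was higher in the GFP-positive library, by 2.82 to 6.14 times. Tyrobp and Fcer1g, adaptor chains of myeloid and other immune receptors, rose by 1.64 ± 0.19 and 1.43 ± 0.21 (adjusted p = 0.000135 and 0.00045).

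Genes of resident tissue macrophages had lower fold changes than Fn1 and Vcan, a difference that was not tested. The complement genes C1qa and C1qb, made by resident macrophages, rose by 1.29 ± 0.25 and 1.47 ± 0.28 (adjusted p = 0.00219 and 0.00231), and C1qc had 0.90 ± 0.36 (adjusted p = 0.0612). The F4/80 gene Adgre1 and the lysosomal glycoprotein gene Cd68 rose by 1.39 ± 0.30 and 0.97 ± 0.22 (adjusted p = 0.0044 and 0.00534). Vcam1, an adhesion molecule of red pulp and erythroblastic island macrophages, was not called, at 0.54 ± 0.23 (adjusted p = 0.087), nor was the mannose receptor gene Mrc1, at 0.78 ± 0.36 (adjusted p = 0.104).

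Vcam1 shows this in single libraries. It was at 4.67, 2.52 and 13.8 CPM in the GFP-negative libraries of Het recipients 1, 2 and 3 and 3.83, 1.88 and 4.47 CPM in those of the KO recipients, and at 4.93, 8.59 and 21.02 CPM in Het recipients and 3.72, 3.57 and 6.13 CPM in KO recipients in the GFP-positive fraction. The fractions overlapped throughout, and Het recipient 3 was highest in both. Within a library, there were 0.365 to 1.11 Vcam1 counts per Csf1r count in the GFP-negative fraction and 0.0980 to 0.412 in the GFP-positive fraction, and this ratio was lower in the GFP-positive library in 6 of 6 recipients. The same held for C1qb per Csf1r, at 0.106 to 0.465 and 0.0877 to 0.307, while Fn1 per Csf1r was lower in 1 of 6. Vcam1, C1qb and Csf1r have 3398, 1088 and 4885 exonic bases, and whether length has a part in these ratios was not tested. Vcam1 and C1qb had lower fold changes than Csf1r and Fn1 a higher one, so the ratios restate these values. The difference between these fold changes was not tested.

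Another list of 20 genes of red pulp and other splenic macrophages gave 12 of 16 tested genes called higher and none lower with the block, with a median log2 fold change of 1.42. This list and those of other cell types below were chosen with earlier results of these data known, so they are not independent support. Sirpa, the inhibitory receptor of phagocytes, rose by 2.33 ± 0.21 and the iron exporter gene Slc40a1 by 1.75 ± 0.21 (adjusted p = 2.76e-05 and 0.000168). Of 3 genes singled out after their values were seen, Spic, the transcription factor of red pulp macrophages, had 0.48 ± 0.38, Hmox1, the haem-degrading enzyme, 0.51 ± 0.24 and Cd5l 0.60 ± 0.27 (adjusted p = 0.338, 0.112 and 0.0987). Of 7 tested monocyte list genes, 4 were called higher and 2 lower. F13a1, the factor XIII gene of monocytes, rose by 2.34 ± 0.23, and Ccr2, which activated T cells also express, fell by 2.41 ± 0.20 (adjusted p = 4.38e-05 and 1.89e-05).

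**Figure D3:**
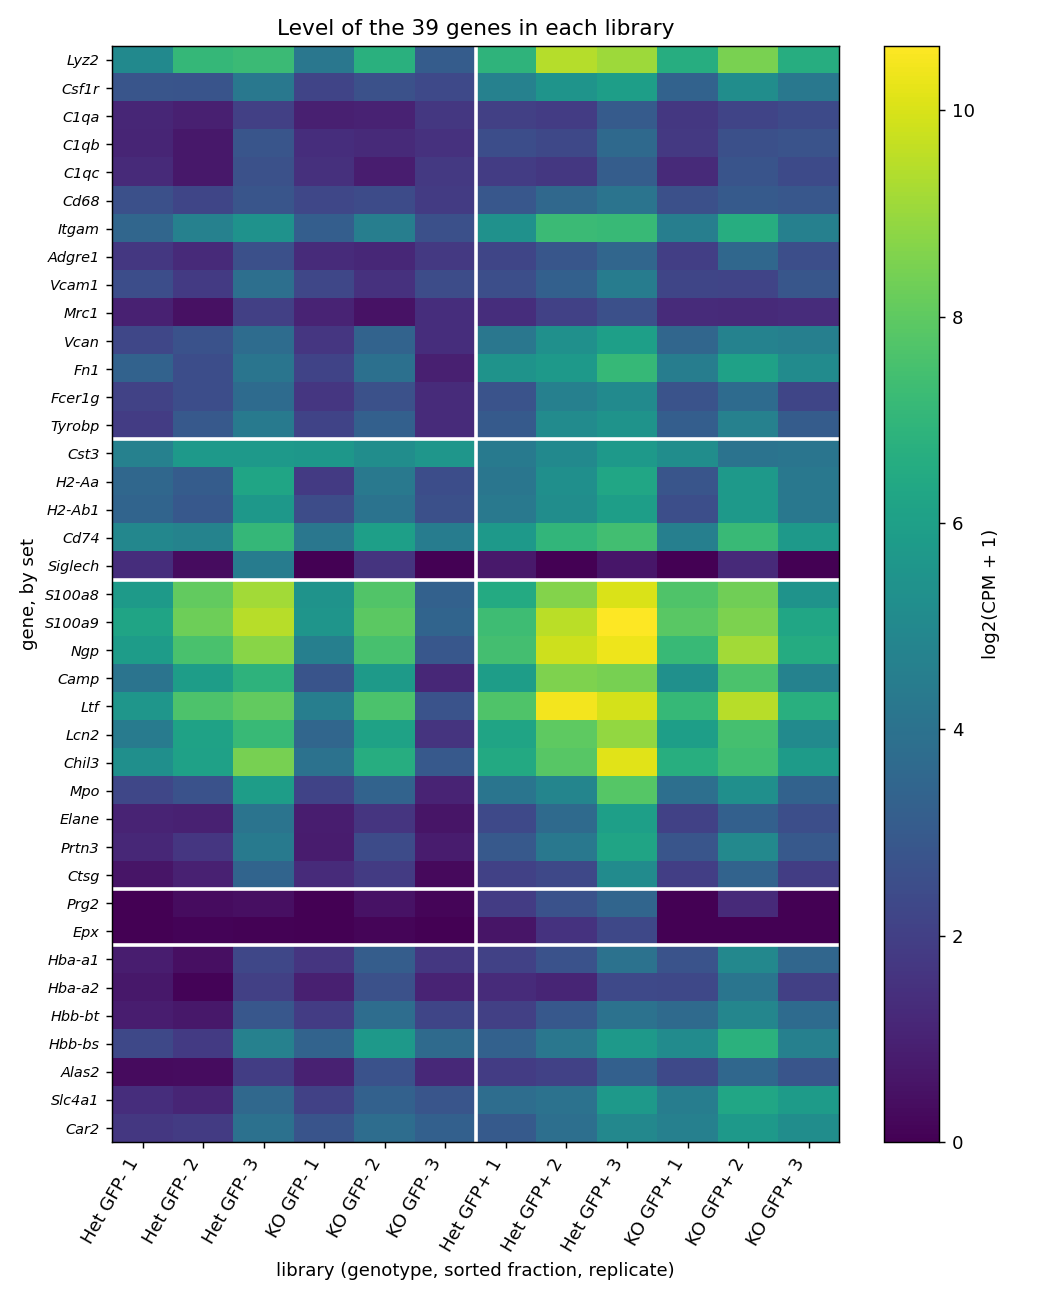
Level of the 39 genes as log2(CPM + 1) in each library, with the GFP-negative libraries on the left and the GFP-positive on the right and white lines between the 5 sets. Neutrophil granule genes are the brightest block, brightest in Het GFP-positive libraries 2 and 3, while Prg2 and Epx are near 0 outside the Het GFP-positive libraries.

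The antigen presentation and dendritic set did not move as a whole. The class II chains H2-Aa and H2-Ab1 and their invariant chain Cd74 rose by 1.26 ± 0.25, 1.23 ± 0.27 and 1.05 ± 0.22 (adjusted p = 0.00248, 0.00482 and 0.00333), while Cst3 fell; Siglech had most of its counts in the GFP-negative fraction. H2-Aa stood at 10.7, 7.42 and 73.9 CPM in the GFP-negative libraries of Het recipients 1, 2 and 3 and 2.53, 18.7 and 4.67 CPM in those of the KO recipients. Its GFP-positive levels were 16.9, 37.9 and 77.7 CPM in Het recipients and 5.95, 52.1 and 18.3 CPM in KO recipients. In Het recipient 3 the 2 fractions were nearly equal, and GFP-negative library 3 stood above all but 1 of the GFP-positive libraries. In the list of other dendritic cell genes 6 of 11 tested genes were called higher and 1 lower, with a median of 1.31. Among them H2-Eb1 rose by 1.44 ± 0.26 and the interferon regulatory factor gene Irf8 by 1.31 ± 0.16 (adjusted p = 0.00165 and 0.000196).

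Cst3 encodes cystatin C, abundant in dendritic cells and also present in T cells. Its levels were 24.3, 52.2 and 52.7 CPM in the GFP-negative libraries of Het recipients 1, 2 and 3 and 48.9, 35.6 and 47.5 CPM in those of the KO recipients, and 19.5, 32.4 and 52.8 CPM in Het recipients and 35.6, 15.7 and 16.7 CPM in KO recipients in the GFP-positive fraction. It was lower in the GFP-positive library of 5 recipients and nearly equal in Het recipient 3. On the log2 scale the change was -0.67 ± 0.15 (adjusted p = 0.00508), and it kept its call without each recipient in turn. In the GFP-negative libraries of KO recipients 1 and 3, where the neutrophil granule sum was lowest, Cst3 stood at 48.9 and 47.5 CPM, within the range of the other GFP-negative libraries. Its fold change was called in KO recipients (-1.02 ± 0.22, adjusted p = 0.013) and not in Het recipients (-0.32 ± 0.20, adjusted p = 0.285), and the interaction did not pass (0.70 ± 0.30, adjusted p = 0.975).

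Siglech, the receptor that marks plasmacytoid dendritic cells, had 366 of its 439 counts in 1 library, Het GFP-negative 3. The GFP-negative libraries of Het recipients 1 and 2 had 22 and 4 counts, and those of KO recipients 0, 34 and 0. In the GFP-positive fraction there were 5, 0 and 6 counts in Het recipients and 0, 2 and 0 in KO recipients. Within Het recipient 3 the level was 35.6 times as high in the GFP-negative library (counting interval 16.2 to 97.6). Siglech passed the filter only through 3 GFP-negative libraries, so it was tested because it was high there, and its fitted values are a description. The blocked log2 fold change was -3.79 ± 0.79 in Het recipients and -1.37 without recipient 3, and -0.49 ± 1.39 in KO recipients. Averaged over genotypes it was -2.14 ± 0.76, and -2.80 to -0.90 when each recipient was left out. Flt3, a growth factor receptor of dendritic cell precursors chosen after its values were seen, had 78 counts in Het GFP-negative library 3. It had 17 in the GFP-positive library of the same mouse. These counts are unscaled, and the TMM library sizes were 17620895 and 10274856. Other dendritic list genes differed, with 829 and 469 counts for H2-Eb1 and 833 and 881 for Irf8. After scaling, H2-Aa stood at 73.9 and 77.7 CPM in these libraries.

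Neutrophil granule genes were the most abundant of the 5 sets. Compared per kilobase of exon, S100a9 and S100a8 averaged 727 and 696 CPM per kilobase over the 12 libraries, Ngp 292, Camp 182, Ltf 130 and Chil3 120, while Elane, Mpo, Prtn3 and Ctsg, the products of early precursors, averaged 10.5, 9.98, 8.23 and 5.97. Mpo overlaps Gm11505 and Prtn3 overlaps Plppr3 on the other strand. In the blocked fit all 11 rose, by 1.22 ± 0.20 for S100a8 at the least to 2.65 ± 0.18 for Prtn3 at the most (adjusted p = 0.000854 and 7.06e-06).

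Ltf encodes lactoferrin of the secondary granules. It stood at 47.2, 201 and 267 CPM in the GFP-negative libraries of Het recipients 1, 2 and 3 and 22.3, 193 and 5.51 CPM in those of the KO recipients. Its GFP-positive levels were 205, 1394 and 982 CPM in Het recipients and 139, 725 and 103 CPM in KO recipients. Each recipient was higher in the GFP-positive library, by 3.68 to 18.7 times, and the widest gap, in KO recipient 3, arose from the lowest GFP-negative level of all. The fractions overlapped, since Het GFP-negative libraries 2 and 3 stood above the GFP-positive libraries of KO recipients 1 and 3. Its log2 fold change was 2.22 ± 0.82 without the block and 2.56 ± 0.25 with it (adjusted p = 0.0758 and 4.29e-05). Ngp, Camp, Lcn2 and Chil3, further products of later granules or of mature granulocytes, rose by 2.23 ± 0.23, 2.41 ± 0.24, 2.17 ± 0.23 and 1.86 ± 0.24 (adjusted p = 5.78e-05, 5.24e-05, 8.01e-05 and 0.000225).

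Elane, the neutrophil elastase gene whose promoter is shown above, was a low-level member. It stood at 1.06, 0.953 and 15.8 CPM in the GFP-negative libraries of Het recipients 1, 2 and 3 and 0.815, 2.13 and 0.497 CPM in those of the KO recipients, and at 4.13, 11.7 and 62.7 CPM in Het recipients and 3.19, 8.57 and 4.83 CPM in KO recipients in the GFP-positive libraries. Het recipient 3 was highest in both fractions, at 15.8 and 62.7 CPM. The log2 fold change was 2.40 ± 0.26 (adjusted p = 8.64e-05). Mpo, the myeloperoxidase gene, and Ctsg, the cathepsin G gene, rose by 2.20 ± 0.15 and 2.01 ± 0.29 (adjusted p = 7.39e-06 and 0.000509). Mpo reached 59.4 and 223 CPM in Het recipient 3, against at most 9.36 CPM in the other GFP-negative and 37.8 CPM in the other GFP-positive libraries. Per Ltf count, there were 0.223 and 0.227 Mpo counts in that recipient, which was the highest ratio of its fraction in both cases, and 0.0264 and 0.0199 in Het recipient 2, the lowest. The ratio of an early to a later granule transcript thus differed between recipients, and the ratio was lower in the GFP-positive library in 4 of 6.

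S100a8 and S100a9, the calprotectin subunits, rose least of the genes in the neutrophil granule set. S100a8 stood at 54.2, 268 and 568 CPM in the GFP-negative libraries of Het recipients 1, 2 and 3 and 43.1, 215 and 8.79 CPM in those of the KO recipients. Its GFP-positive levels were 90.3, 403 and 1053 CPM in Het recipients and 206, 319.8 and 43.1 CPM in KO recipients. The ratio of S100a8 to Ltf counts was 1.12 to 2.13 in the GFP-negative and 0.289 to 1.48 in the GFP-positive libraries, and lower in the GFP-positive library in 6 of 6 recipients. S100a9 per Ltf did the same, at 1.29 to 2.67 and 0.510 to 1.71. Both S100 genes had lower fold changes than Ltf, which these ratios restate. The transcripts have 392, 522 and 2742 exonic bases; whether length has a part in these ratios was not tested. In Het recipients alone S100a8 was not called with the block (0.74 ± 0.27, adjusted p = 0.0679), while in KO recipients it was (1.70 ± 0.29, adjusted p = 0.00412), and the interaction, which tests that difference, was -0.96 ± 0.39 (adjusted p = 0.944).

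A list of other neutrophil genes, also chosen with earlier results of these data known, moved in the same direction. Of 14 tested genes, 4 were called higher without the block and all 14 with it, with a blocked median of 2.16. Csf3r, the receptor for granulocyte colony-stimulating factor, rose by 3.08 ± 0.29, the haptoglobin gene Hp by 2.69 ± 0.23, the neutrophil antigen gene Cd177 by 2.46 ± 0.21 and the gelatinase gene Mmp9 by 2.18 ± 0.17 (adjusted p = 3.63e-05, 2.63e-05, 2.00e-05 and 1.42e-05). Over the 12 libraries, the genes outside the 39 whose log2(CPM + 1) followed the summed granule level most closely were Cd177, the oxidase subunit gene Cybb and the collagenase gene Mmp8, with Pearson r of 0.988, 0.986 and 0.981. For the macrophage and monocyte sum they were C3, Hp and Csf2rb, at 0.993, 0.990 and 0.990, for the antigen presentation and dendritic sum Chdh, Kynu and Tlr9, at 0.957, 0.956 and 0.954, and for the eosinophil sum Trav9-1, Tbxas1 and Dach1, at 0.952, 0.942 and 0.941. These libraries share recipients, depth and fraction, so the values are descriptions.

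The eosinophil granule genes had most of their counts in the Het GFP-positive libraries. Prg2, the gene of major basic protein, had 20, 14 and 103 counts in the GFP-positive and 0, 4 and 6 in the GFP-negative libraries of Het recipients 1, 2 and 3. KO recipients had 0, 2 and 0 counts in the GFP-positive and 0, 7 and 2 in the GFP-negative libraries. In CPM, the Het GFP-positive libraries stood at 2.67, 5.46 and 10.02 and no other library passed 1.43. A count of 0 allows up to 3 counts, or 0.319 and 0.353 CPM in KO GFP-positive libraries 1 and 3, below the lowest Het GFP-positive level. The 2 counts of KO GFP-positive library 2, the shallowest, stand for 1.43 CPM with an exact Poisson 95% interval of 0.173 to 5.16 CPM, which holds that level.

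Prg2 passed the filter on low counts only through the 3 Het GFP-positive libraries. It was thus tested because it was high there, and its fitted values for that group are a description without a test. In Het recipients the log2 fold change was 4.77 ± 1.10 without and 4.86 ± 0.59 with the block. It was 4.59 to 5.17 with the block when each recipient was left out, and 4.16 to 5.32 without the block when each library was. In KO recipients the blocked value was 0.66 ± 1.29, with a range of -2.45 to 1.63 when each recipient was left out. Averaged over genotypes it was 2.76 ± 0.94 (1.20 to 3.24 over the 6 fits). Between the GFP-positive groups Het minus KO was 5.49 ± 1.43, and the interaction was 4.20 ± 1.38 with the block; neither was called (adjusted p = 0.294 and 0.65). In the authors' deposited table, fitted with another tool, Prg2 was listed for the GFP-positive groups at -1.37 with an adjusted p of 0.0238, where the sign is KO over Het.

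Epx, the eosinophil peroxidase gene, had the same distribution at fewer counts: 4, 5 and 41 in the Het GFP-positive libraries, 0, 1 and 1 in the Het GFP-negative libraries, and 2 in KO GFP-negative library 2 with 0 in the 5 other KO libraries. Within Het recipients 2 and 3 the GFP-positive level was 28.7 and 70.3 times as high, with counting intervals of 3.21 to 1356 and 11.9 to 2844. Other eosinophil genes were mostly too low to test. Of 9 in the list, 2 were tested, and with the block only Adgre4 was called higher, at 1.00 ± 0.30 (adjusted p = 0.0215). Ccr3, the eotaxin receptor gene that some T cells also express, had -0.76 ± 0.40 (adjusted p = 0.145), and Siglecf had 27 counts in Het GFP-positive library 3 and 1 to 8 in the others. Ear1 was at 0 throughout. Of the basophil and mast cell genes, 6 of 6 tested were called higher with the block. Among them were the histidine decarboxylase gene Hdc, at 1.97 ± 0.19, and the basophil proteases Prss34 and Mcpt8, at 2.21 ± 0.33 and 1.53 ± 0.31 (adjusted p = 4.31e-05, 0.000546 and 0.00316).

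**Figure D4:**
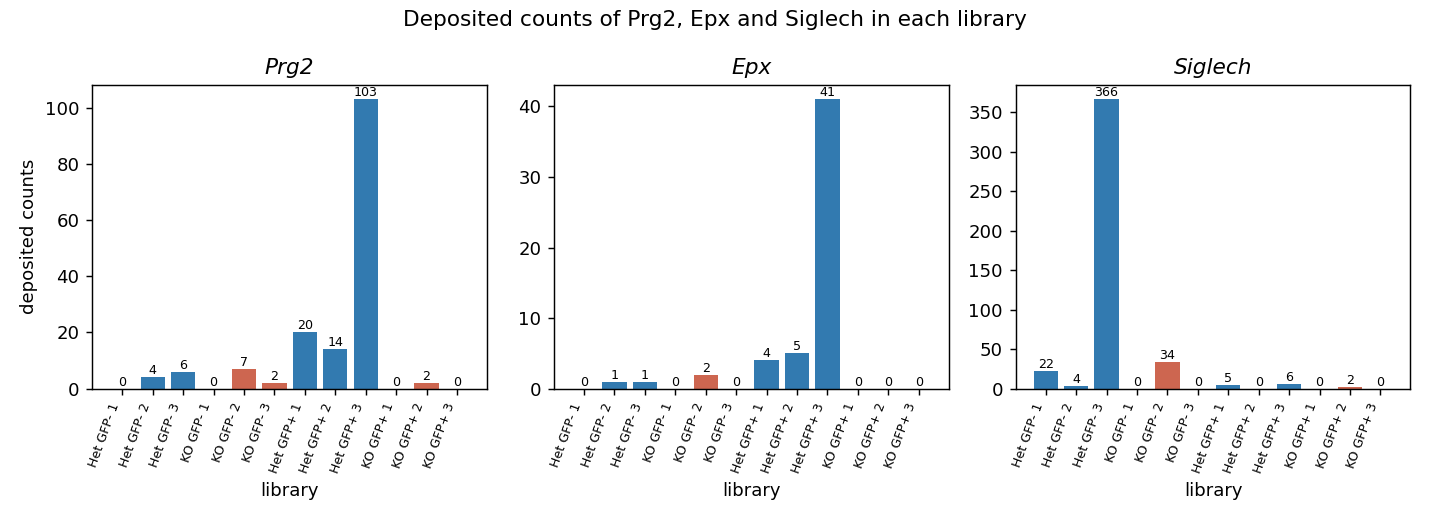
Deposited counts of Prg2, Epx and Siglech in each library, Het in blue and KO in red, with the count above each bar and the GFP-negative libraries on the left of each panel. Prg2 and Epx counts lie mostly in the 3 Het GFP-positive libraries, and 366 of 439 Siglech counts lie in Het GFP-negative library 3.

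All 7 erythroid genes rose in the blocked fit, and Slc4a1, which encodes band 3 of the red cell membrane, rose furthest. It was at 1.66, 1.16 and 11.01 CPM in the GFP-negative libraries of Het recipients 1, 2 and 3 and 3.10, 8.88 and 5.91 CPM in those of the KO recipients. Its GFP-positive levels were 13.1, 14.8 and 50.5 CPM in Het recipients and 21.6, 77.1 and 55.1 CPM in KO recipients. Every GFP-positive library stood above every GFP-negative one, with a ratio of 4.59 to 12.8 within recipients. The log2 fold change was 2.78 ± 0.58 without the block and 2.91 ± 0.17 with it (adjusted p = 0.0124 and 3.52e-06). Car2, a carbonic anhydrase of red cells, rose by 1.79 ± 0.17, and Alas2, the first enzyme of haem synthesis in erythroid cells, by 2.07 ± 0.31 (adjusted p = 3.58e-05 and 0.000599). Alas2 overlaps Apex2 on the other strand.

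Globin transcripts had lower fold changes than Slc4a1. Hbb-bs, an adult beta globin gene, stood at 3.99, 2.45 and 24.8 CPM in the GFP-negative libraries of Het recipients 1, 2 and 3 and 9.37, 53.5 and 11.9 CPM in those of the KO recipients. Its GFP-positive levels were 8.80, 17.6 and 52.8 CPM in Het recipients and 34.1, 109.9 and 23.9 CPM in KO recipients. KO recipient 2 was highest in both fractions, and the log2 fold change was 1.42 ± 0.20 (adjusted p = 0.000456). Hbb-bt rose by 1.78 ± 0.25, Hba-a1 by 2.10 ± 0.25 and Hba-a2 by 1.38 ± 0.32 (adjusted p = 0.000387, 0.000141 and 0.00587). The 2 alpha and the 2 beta globin genes are near-identical copies, so the split of reads within each pair is uncertain; the 250 bases before the Hba-a1 and Hba-a2 starts were 97.6% identical. There were 2.02 to 6.03 Hbb-bs counts per Slc4a1 count in the GFP-negative and 0.434 to 1.58 in the GFP-positive libraries, and the ratio was lower in the GFP-positive library in 6 of 6 recipients. This ratio restates the lower fold change of Hbb-bs, and the difference between the fold changes of Hbb-bs and Slc4a1 was not tested. Their transcripts have 863 and 4891 exonic bases, and whether length has a part in the ratio was not tested.

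A list of other erythroid genes, also chosen with earlier results of these data known, moved with the set. Of 15 tested, 11 were called higher without the block and 12 with it, and Bpgm was called lower in both, with a blocked median of 2.32. The membrane skeleton gene Sptb rose by 3.14 ± 0.30 and the membrane protein gene Ermap by 2.79 ± 0.27 (adjusted p = 4.31e-05 for both). Klf1, an erythroid transcription factor chosen after its values were seen, rose by 2.34 ± 0.33 (adjusted p = 0.000396). Tfrc and Fech, which dividing T cells also express, were the most abundant of the list, and Bpgm fell by 0.66 ± 0.14 (adjusted p = 0.00373). Among the genes whose level followed the erythroid sum most closely were Cxcl10 and Aldh1a1, with r of 0.943 and 0.940 over 12 libraries.

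The comparison of fractions was then made within each genotype, the first of these being the study's comparison for the signature of cells that express Eomes. In Het recipients the blocked fit called 29 members higher and 1, Siglech, lower, where 12.8% of all genes were called higher and 9.41% lower. In KO recipients it called 31 higher and 1, Cst3, lower, where 9.60% and 8.14% were called. Without Prg2 and Siglech, which entered through 1 fraction, the blocked fit called 28 of 36 members higher and 0 lower in Het recipients. Without the block 1 member, Prg2, was called in Het recipients, where 3.45% of all genes were called and 1.82% as higher, and 0 in KO recipients, where 0.128% were. An unadjusted p under 0.05 was found for 13 and 8 members, against 23.2% and 17.5% of all genes, and 2 of the 13 were Prg2 and Siglech. DESeq2 called 6 members, Prg2 among them, and 3, against 8.23% and 2.87% of all genes. In the blocked fit of KO recipients without KO recipient 3, 14 members were called higher, where 1.55% of all genes were, and of these 7 were neutrophil granule, 5 macrophage and monocyte and 2 erythroid genes. The interaction of fraction and genotype called no member with or without the block, where 0.0755% and 0.00755% of all genes were called; 3 and 1 members had an unadjusted p under 0.05, Prg2 among them in both, against 4.77% and 1.99% of all genes. DESeq2 called no member and 0.0698% of all genes. The blocked medians in the Het and KO recipients were 1.62 and 1.73, and 1.62 and 1.79 without Prg2 and Siglech.

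Genotypes were then compared within a fraction, across different recipients, which between the GFP-positive groups is the study's comparison for genes that depend on Eomes. In neither fraction was a member called, where 0.106% of all genes were called between the GFP-positive groups and 0% between the GFP-negative groups. An unadjusted p under 0.05 was found for 3 and 2 members, 1 of them Prg2 and Siglech respectively, against 6.22% and 5.25% of all genes. DESeq2 called no member in either, and 0.7% and 0.331% of all genes. The median log2 difference, Het minus KO, was 1.68 for neutrophil granule and -0.97 for erythroid genes in the GFP-positive, and 1.74 and -1.21 in the GFP-negative fraction, against 0.01 over all tested genes in both. Between the GFP-positive groups Ltf was at 1.44 ± 1.14 and Hbb-bs at -0.97 ± 0.97 (adjusted p = 0.968 and 1).

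The authors' deposited tables list genes with an adjusted p under 0.05, 1406 genes for the Het fractions and 388 for the KO fractions. The table for the GFP-positive groups lists 77 genes, of which 1, Prg2, is a member. The count matrix held 43626 genes, 23675 of them with any count. How many genes the authors tested is not known here, so no share stands beside these counts and they are a description. In the authors' deposited table for the Het fractions, 7 of the 39 genes appear, all higher in the GFP-positive fraction: Prg2, Fn1, Vcan, Epx, Csf1r, Itgam and Cd68, with log2 fold changes from 1.02 for Cd68 to 3.18 for Prg2. The authors' deposited table for the KO fractions lists 6, with Slc4a1 highest at 2.19, then Csf1r, Car2, Prtn3, Vcan and Elane. Csf1r and Vcan are in both of these authors' deposited tables, at 1.75 and 1.64 and at 1.98 and 1.29. These values come from another model than those above and are given as deposited.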

How the data were processed

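Total RNA of 12 sorted samples had been depleted of ribosomal RNA and made into stranded libraries, per the labels' protocols. The submitters' processing notes name the mouse build mm10, bcl2fastq 1.8.4, TopHat2 2.0.13, featureCounts 1.5.0-p1 and DESeq2 1.6.1; the sources used here give neither the strand setting nor the annotation release. The authors deposited whole-number read counts per gene, with the exonic length in bases as another column, per the file headers. The authors' deposited comparison tables hold a mean normalised signal per gene, a log2 fold change with its error, a test score, and p-values; they were used for description alone. Counts were fitted as deposited in edgeR 4.0.16 (R 4.3.3) with TMM scaling, filterByExpr (minimum count 10, minimum total 15), all 12 libraries, 1 mean per group and quasi-likelihood F-tests, with Benjamini-Hochberg adjustment over 13238 genes and a call at 0.05. Standard errors were taken from the log2 fold change and its F statistic (the absolute change over the root of F). The 6 comparisons were the Het and the KO fractions, their average, their interaction, and the genotypes within each fraction. The fit without a block was tested on simulated counts that held no recipient effect. The blocked fit was not tested in this way.

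The design text states that libraries with the same genotype and number come from the same recipient. Deviations from group means correlated within each such pair (r = 0.547, 0.241 and 0.617 for Het and 0.507, 0.506 and 0.263 for KO recipients), so the recipient block was used as an alternative and its values are printed throughout. Whether the 3 recipients of a group received cells of different donors is not stated. Other alternatives were DESeq2 1.42.0, RLE size factors, no filter on low counts, only the groups compared, no dominant features (4), and each library left out. A GC and length offset, and leaving out whole recipients, were added after seeing the data. Counting intervals are exact binomial at 95%; a count of 0 was taken to allow up to 3 counts. Of 155 other marker genes 154 matched. All 39 members are named; of each other list, up to 4 called genes and 3 genes of highest mean CPM, with any others said to be chosen later; 1 gene that this rule would name is not reported here. Members and lists were chosen with earlier results of these data known. Promoters come from RefSeq GRCm38.p6.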

Additional observations from a re-analysis of the deposited data

How the results depend on the processing

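The number of the 38 tested genes called in Het fractions was 1. It was 30 with the recipient as a block, 34 with the block and a GC and length offset, 6 with DESeq2, 7 without the filter on low counts, 2 with only the groups compared and 0 to 6 without single libraries. It was 0 without both libraries of Het recipient 3, where 0.682% of all genes were called. For the fits named before it, in the order given, 3.45%, 22.2%, 21.5%, 8.23%, 3.79%, 3.44% and 0.662% to 7.03% of all genes were called. In KO fractions the number was 0, with 32 under the block, 33 under the block and offset, 3 with DESeq2, 3 without the filter and 0 to 4 without single libraries. In the same order, 0.128%, 17.7%, 17.5%, 2.87%, 0.849% and 0.0358% to 12.6% of all genes were called. The 4 arose without KO GFP-positive library 1, where the share of all genes was 12.6%. Averaged over genotypes the number was 10, with 35 under the block, 35 under the block and offset, 18 with DESeq2, 23 without the filter, 4 to 20 without single libraries and 16 without both libraries of Het recipient 3. In the same order, 18.1%, 41.1%, 37.4%, 23%, 12.4%, 5.33% to 33.3% and 13.9% of all genes were called. Between the GFP-positive groups the number was 0, and 2 without the filter, where 0.106% and 0.304% of all genes were called. With the block and each recipient left out, the number was 24 to 33 in Het fractions, 14 to 32 in KO fractions and 33 to 36 on average. The shares of all genes called were 7.88% to 29.5%, 2.35% to 29% and 25.2% to 45.8%. Without Het recipient 1, or without KO recipient 1, 2 or 3, Epx was tested too and was called in Het fractions. Prg2 was called in all 6 of these Het fits and Siglech in 5. These genes had most of their counts in 1 fraction, so the Het range holds calls that are descriptions. The interaction called 1 member, S100a8, without KO recipient 2, where 0.111% of all genes were called, and 0 otherwise. The block changed no other call of the interaction. Without Prg2 and Siglech, which passed the filter through 1 fraction only, the main counts were 0, 0 and 10, and 28, 32 and 33 under the block. The cause of these changes was not tested. Over all genes, the share of calls that were higher, averaged over genotypes with the block, was 49.5%, and 62.7% with the offset. Of 4555 alternative values for single genes, 3988 kept direction and call, 51 lost the call, 267 gained one, 249 changed sign without a call and 0 reversed a call. All 420 alternative set sums lay within 1 SD. This margin was wide: the pooled SD on the log2 scale ran from 0.915 for the antigen presentation and dendritic set to 2.06 for the eosinophil set. Groups of 3 recipients, and libraries of KO GFP-positive recipient 2 with 2116894 counts, limit the precision for low genes such as Prg2 and Epx.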
